A study of Homo sapiens with 16 samples.

Results

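The 38 genes described here build the junctions and the keratin cytoskeleton of epithelial cells, switch that programme on, or mark colon cells. They were taken as a list of symbols and matched to the count tables by NCBI gene number, which found all 38 among 27434 rows. By role they are 4 adherens junction and cell surface genes, 8 tight junction genes, 6 desmosome genes, 6 keratins, 5 regulators of the epithelial state, 3 intestinal transcription factors and 6 products of colon cells. Poly(A) RNA had been sequenced from 16 libraries in 8 groups of 2, from U2OS cells, a human osteosarcoma line, and HCT116 cells, a human colorectal carcinoma line. The study asks whether the RNA-binding protein SAM68 (gene KHDRBS1) is needed for the long noncoding RNA NORAD to act on Pumilio proteins.

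In U2OS, all wild type for SAM68, the groups were SAM68 siRNA and control siRNA, and a plasmid carrying mouse SAM68 and the empty control plasmid. In HCT116 the groups were SAM68 knockout cells under NORAD siRNA or control siRNA, and wild-type cells under the same siRNAs. Per the labels, siRNAs were used at 50 nM, plasmid at 100 ng per 20000 cells, and cells were harvested after 48 h. All 16 cultures were lipid transfected, and none was left without siRNA or plasmid. The sources used here give neither the number of knockout clones nor the origin of the 2 libraries of each group. The p-values therefore measure the spread between these libraries, which may be technical.

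Library totals were 11349545 to 25764664 expected counts in U2OS and 15808640 to 27387412 in HCT116. Levels are given as CPM, each library's counts scaled to a common total after TMM normalisation over all 16 libraries, and as TPM where 2 genes are compared, since TPM corrects for transcript length. KHDRBS1 was at 48.2 to 75.4 CPM under SAM68 siRNA against 229 to 232 CPM under control siRNA, and at 523 to 589.6 CPM under the SAM68 plasmid against 220.4 to 273 CPM under the control plasmid. The plasmid carries the mouse gene and reads were aligned to the human genome, so how fully its RNA was counted is not known. KHDRBS1 was at 32.5 to 45.6 CPM in knockout HCT116 against 215 to 250.5 CPM in wild-type HCT116. NORAD was at 48.8 to 78.7 CPM in HCT116 under NORAD siRNA against 231 to 259.5 CPM under control siRNA. The bone and mesenchymal list summed to 6371 to 10470 CPM in U2OS and 81.8 to 114 CPM in HCT116. Blood, endothelial and liver markers summed to at most 4.96 CPM in any library. Of the colon markers, CDX2, KRT20, HNF4A and CEACAM5 were counted in every HCT116 library, HNF4A at no more than 0.476 CPM and CEACAM5 at no more than 0.213 CPM. CDX1, VIL1 and TFF3 had 0 counts in all 8. CDX2 and CEACAM5 were also counted in all 8 U2OS libraries, CEACAM5 with 25 counts there in total and 22 in HCT116. LGALS4 was counted in all 8 U2OS libraries and in 6 HCT116 libraries. The 6 colon products, MUC1 among them, summed to 3.46 to 7.42 CPM in U2OS and 0.916 to 1.96 CPM in HCT116.

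Epithelial cells are held together by 3 kinds of contact. In adherens junctions the cadherin E-cadherin (CDH1) links neighbouring cells, tight junctions of claudins and occludin seal the space between them, and desmosomes anchor keratin filaments to the membrane. Keratins 8, 18, 19 and 20 are the usual filament proteins of simple epithelia such as the colon lining. The programme is kept on by transcription factors such as GRHL2, OVOL1 and ELF3 and by the splicing regulators ESRP1 and ESRP2, and it is repressed by SNAI and ZEB factors in mesenchymal cells. U2OS derives from bone and HCT116 from colon epithelium.

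Between the lines, 25 members were lower in U2OS than in wild-type HCT116, both under control siRNA, and 3 were higher. These are counts among the 30 members that passed the filter on low counts, by edgeR's quasi-likelihood test with Benjamini-Hochberg adjusted p below 0.05. Of all 16444 genes tested, 65.4% were called, 35.6% as higher and 29.8% as lower in U2OS, so a call between the lines was common. The median log2 fold change was -4.67 over the members tested, with OVOL1, which had 0 counts in the U2OS control libraries, at its fitted value or at its bound, and 0.10 over all genes tested. A total of 12 of the 30 members passed the filter of the HCT116 libraries and not that of the U2OS libraries, so for these the direction follows in part from the filter. Over all libraries of each line, 27 of the 38 members had 8 U2OS values that did not overlap the 8 HCT116 values, and 24 of these were lower in U2OS. The share of all genes without overlap was not determined, so these counts have no background to be set against. In bulk RNA, fewer cells expressing a gene and less of its RNA per cell cannot be told apart. Line, experiment and any processing batch are also the same division of the libraries and cannot be told apart.

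**Figure D1:**
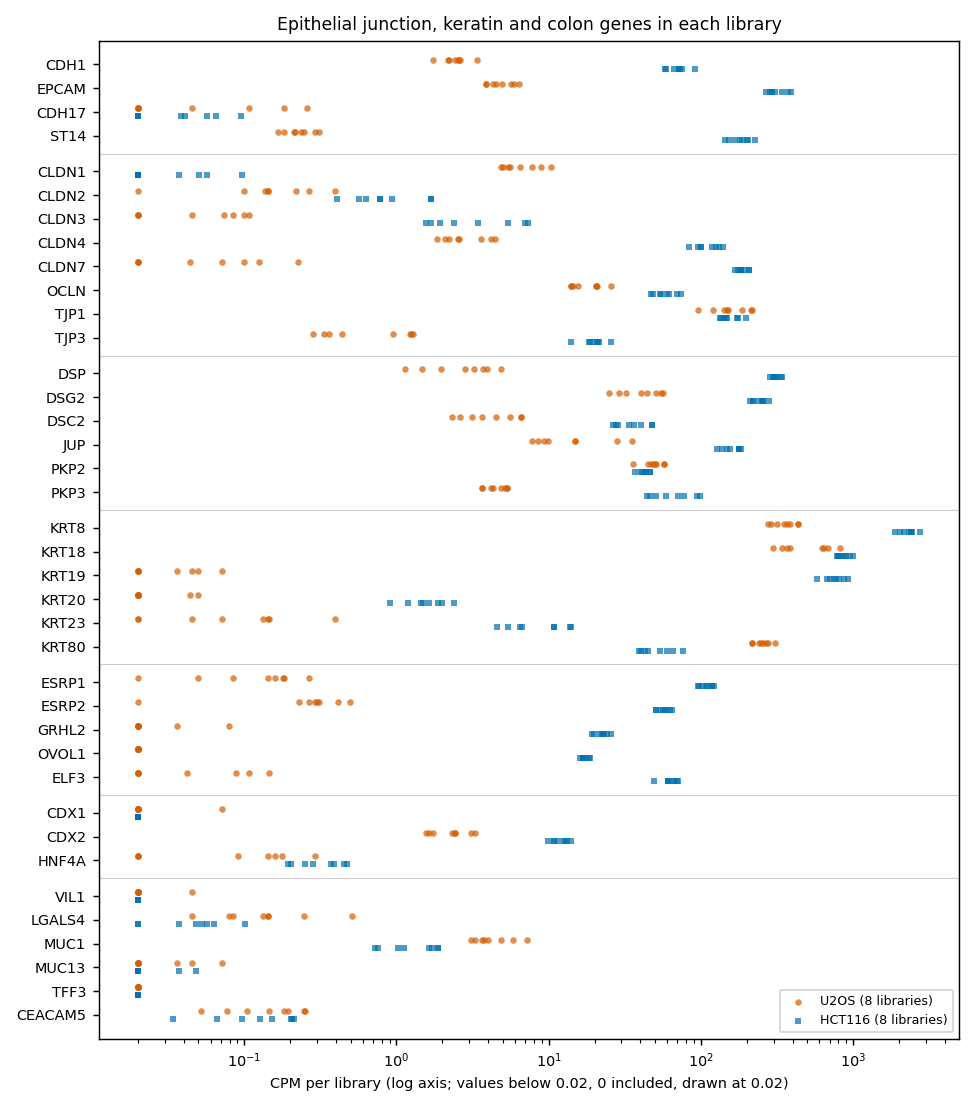
CPM of each of the 38 members in every library, on a log axis, with 8 U2OS libraries (circles) above 8 HCT116 libraries (squares) for each gene and the role classes divided by lines. Most members lie to the left in U2OS, and KRT80, CLDN1 and MUC1 lie to the right. TJP1, PKP2 and KRT18 overlap, as do the 8 members that passed no filter.

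**Figure D2:**
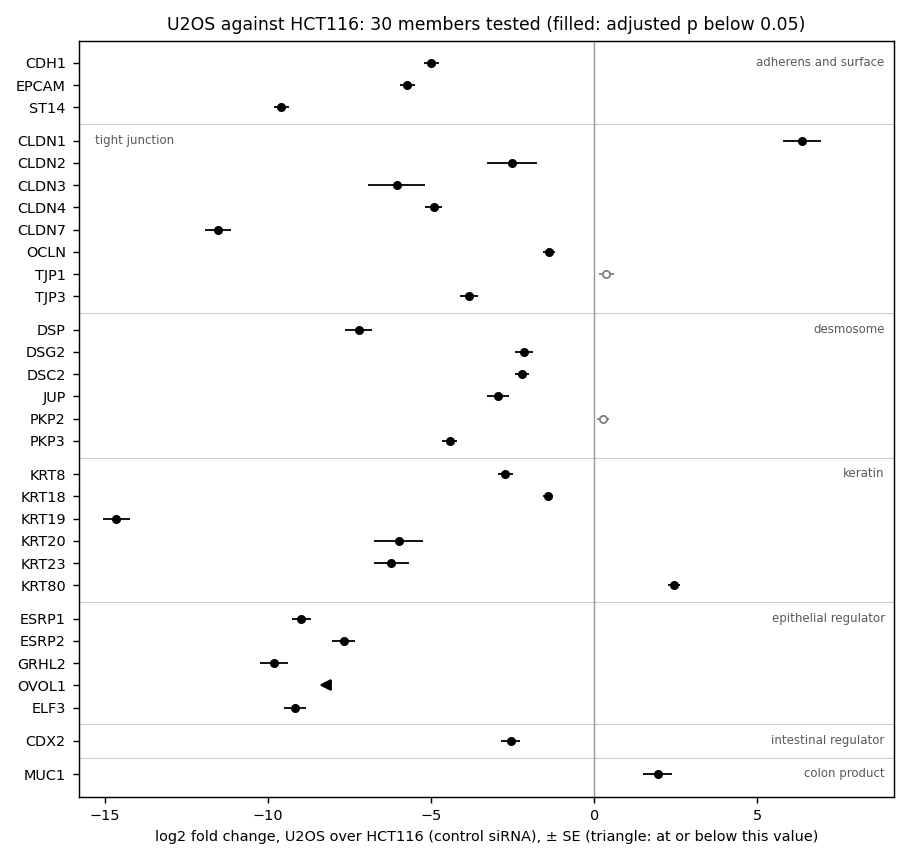
Log2 fold change of U2OS over wild-type HCT116 under control siRNA with its standard error, for the 30 members tested, by role class. Filled points passed an adjusted p below 0.05, the triangle marks OVOL1 at its bound, and the open points are TJP1 (0.37) and PKP2 (0.28).

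Promoters of 6 members are printed, of CLDN1, higher in U2OS, and of genes lower there, not all of them the furthest apart. They are RefSeq sequences of assembly GRCh38.p14, another build than that of the count tables, from 250 bases before to 50 bases after the annotated start and 5′ to 3′ on the gene's strand. Capitals mark the E-box CACCTG or CAGGTG, letters that SNAI and ZEB repressors are known to recognise, and, in ELF3, also a match to TTTATNG or CNATAAA, the CDX motif on either strand.
CLDN7 (chr17:7262429-7262728, minus strand): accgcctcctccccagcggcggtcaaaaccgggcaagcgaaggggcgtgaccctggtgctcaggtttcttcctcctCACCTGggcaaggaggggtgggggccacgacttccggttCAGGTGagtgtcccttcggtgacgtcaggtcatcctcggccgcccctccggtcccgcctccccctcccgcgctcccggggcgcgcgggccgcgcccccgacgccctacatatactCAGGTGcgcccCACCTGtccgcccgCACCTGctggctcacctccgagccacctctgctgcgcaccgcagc
CLDN4 (chr7:73830746-73831045, plus strand): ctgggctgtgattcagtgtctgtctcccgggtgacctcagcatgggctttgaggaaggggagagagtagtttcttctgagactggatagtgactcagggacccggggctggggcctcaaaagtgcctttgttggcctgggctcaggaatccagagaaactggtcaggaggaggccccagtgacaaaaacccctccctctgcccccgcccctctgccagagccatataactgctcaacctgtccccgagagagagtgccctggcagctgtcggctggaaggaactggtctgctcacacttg
CLDN1 (chr3:190322397-190322696, minus strand): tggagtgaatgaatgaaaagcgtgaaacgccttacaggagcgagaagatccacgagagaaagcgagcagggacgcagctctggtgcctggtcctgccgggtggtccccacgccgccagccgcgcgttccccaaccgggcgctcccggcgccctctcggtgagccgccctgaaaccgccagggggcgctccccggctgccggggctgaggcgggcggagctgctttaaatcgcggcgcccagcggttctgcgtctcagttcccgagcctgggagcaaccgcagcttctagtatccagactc
DSP (chr6:7541421-7541720, plus strand): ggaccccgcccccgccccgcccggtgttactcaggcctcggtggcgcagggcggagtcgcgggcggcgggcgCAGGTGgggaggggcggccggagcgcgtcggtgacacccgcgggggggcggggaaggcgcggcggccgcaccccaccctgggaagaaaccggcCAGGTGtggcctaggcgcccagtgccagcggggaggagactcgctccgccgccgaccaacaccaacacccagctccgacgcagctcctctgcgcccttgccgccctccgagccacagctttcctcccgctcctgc
JUP (chr17:41785927-41786226, minus strand): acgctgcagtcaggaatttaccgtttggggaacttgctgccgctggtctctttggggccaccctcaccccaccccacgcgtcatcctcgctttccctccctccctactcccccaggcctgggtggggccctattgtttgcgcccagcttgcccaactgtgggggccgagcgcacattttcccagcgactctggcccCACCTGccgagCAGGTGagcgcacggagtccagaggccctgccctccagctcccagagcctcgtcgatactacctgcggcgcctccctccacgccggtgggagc
ELF3 (chr1:202010337-202010636, plus strand): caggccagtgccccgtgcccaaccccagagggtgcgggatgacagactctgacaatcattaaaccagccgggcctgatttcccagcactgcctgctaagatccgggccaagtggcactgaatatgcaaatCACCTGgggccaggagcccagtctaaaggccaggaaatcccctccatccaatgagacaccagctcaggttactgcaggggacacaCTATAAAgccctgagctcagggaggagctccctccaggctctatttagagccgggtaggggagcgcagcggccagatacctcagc

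The printed CLDN7 promoter held 5 E-boxes, those of DSP and JUP 2 each and that of ELF3 1, with no overlap between motifs. CLDN7 and JUP each have a further annotated start, not printed, whose promoter held 0 E-boxes. The CLDN4 promoter, of a gene also lower in U2OS, and the CLDN1 promoter, of a gene higher in U2OS, held none. Promoters of KRT8, CLDN2 and CDX2, not printed and of genes lower in U2OS, held none either. Over the 21 members with an entry, 17 of 32 promoters (53.1%) held an E-box, against 20.6% of all 35116 promoters of the same length. Some of these belong to nearby starts of 1 gene and share bases, and 15 members had at least 1 E-box. Among these members were TJP1, not called between the lines, and HNF4A, LGALS4 and CEACAM5, which passed no filter. MUC1, also higher in U2OS, had 2 E-boxes in its promoters. A grainyhead match (AACCNGTT on either strand) was found in 0 of the 32 promoters, against 1.73% of all promoters, and a CDX match in 2 (6.25%), against 9.73%. These are matches of letters in a fixed window and say nothing of binding. CDH1, EPCAM, CDH17, ST14, PKP2, PKP3, KRT18, KRT19, KRT23, KRT80, ESRP1, ESRP2, GRHL2, OVOL1, CDX1, VIL1 and TFF3 have no entry in the table.

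All 3 adherens junction and surface genes tested were lower in U2OS. CDH1, the cadherin of epithelial adherens junctions, had 2.44 and 1.73 CPM in U2OS control libraries, against 59.2 and 72.5 CPM in HCT116 control libraries. Over all libraries it spanned 1.73 to 3.40 CPM in U2OS (median 2.49) and 58.2 to 92.0 CPM in HCT116 (median 71.9), with no overlap, and the log2 fold change was -4.99 (SE 0.22, edgeR adjusted p = 3.1e-10). EPCAM, a surface adhesion protein of epithelia, had 4.96 and 5.90 CPM in U2OS control libraries, against 282 and 293 CPM in HCT116 control libraries. Its log2 fold change was -5.72 (SE 0.23, adjusted p = 1.3e-10). ST14, which encodes the membrane protease matriptase, had 0.310 and 0.216 CPM in U2OS control libraries, against 225 and 182 CPM in HCT116 control libraries, a log2 fold change of -9.59 (SE 0.24, adjusted p = 3.3e-12). CDH1 and EPCAM were thus low but counted in every U2OS library, with 377 and 782 counts in total. CDH17, the cadherin of intestinal epithelium, passed no filter, with 11 counts in U2OS and 6 in HCT116.

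Of the 8 tight junction genes, 6 were lower in U2OS, CLDN1 was higher and TJP1 was not called. CLDN7, a claudin, the family of 4-pass proteins that line the seal, had 1 and 2 counts in the U2OS control libraries (0.0443 and 0.0719 CPM), against 206 and 183 CPM in HCT116 control libraries. On these counts it was 3287-fold lower in U2OS, with a 95% exact counting interval of 1124 to 15940. CLDN4, another claudin, had 3.59 and 4.17 CPM in U2OS control libraries, against 139 and 96.3 CPM in HCT116 control libraries (log2 fold change -4.92, SE 0.27, adjusted p = 1.7e-09). CLDN1, the claudin best known from the epidermal barrier, ran the opposite way. It had 5.00 and 4.89 CPM in U2OS control libraries, against 2 counts and 0 counts in HCT116 control libraries (0.0963 and 0 CPM). That was 90.6-fold lower in HCT116, with an exact counting interval of 24.8 to 752, and CLDN1 did not pass the filter of the HCT116 libraries. TJP1 encodes ZO-1, the scaffold under the junction, which many cell types without tight junctions also make. It had 185 and 213 CPM in U2OS control libraries, against 135 and 175 CPM in HCT116 control libraries (log2 fold change 0.37, SE 0.23, adjusted p = 0.17). Its direction turned when all 4 groups of each line were averaged, to a log2 fold change of -0.003.

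The remaining tight junction genes differed in size. OCLN, which encodes occludin, was at 13.98 to 25.7 CPM in U2OS and 46.8 to 73.9 CPM in HCT116, and its log2 fold change of -1.39 (SE 0.18, edgeR adjusted p = 1.4e-05) was among the smallest of the called members. TJP3, the scaffold ZO-3, was at 0.284 to 1.29 CPM in U2OS and 13.9 to 25.6 CPM in HCT116 (log2 fold change -3.83, SE 0.27). CLDN3 and CLDN2 were low in both lines. CLDN3 reached at most 0.108 CPM in U2OS, and in HCT116 it ranged from 1.57 to 7.30 CPM, a wide spread that included 6.93 and 1.57 CPM in the same group. CLDN2 spanned 0 to 0.395 CPM in U2OS and 0.404 to 1.69 CPM in HCT116. Its call (log2 fold change -2.52, SE 0.76) was lost without either of 2 control libraries and against knockout HCT116.

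Of the 6 desmosome genes, 5 were lower in U2OS and PKP2 was not called. DSP encodes desmoplakin, which ties keratin filaments to the desmosome. It had 2.83 and 1.47 CPM in U2OS control libraries, against 297 and 337 CPM in HCT116 control libraries (log2 fold change -7.22, SE 0.41, edgeR adjusted p = 2.9e-09). JUP, plakoglobin, which sits in desmosomes and adherens junctions, had 14.9 and 28.1 CPM in U2OS control libraries, against 179 and 156 CPM in HCT116 control libraries (log2 fold change -2.96, SE 0.34). DSG2, the desmoglein of simple epithelia, which the heart also makes, had 56.2 and 50.6 CPM in U2OS control libraries, against 219 and 254 CPM in HCT116 control libraries (log2 fold change -2.15, SE 0.27). For all 3 genes the 8 U2OS values lay below the 8 HCT116 values. The desmosomal cadherin DSC2 was at 2.31 to 6.56 CPM in U2OS and 26.5 to 47.8 CPM in HCT116. The plakophilins, armadillo proteins of the desmosome plaque, parted: PKP3 had a log2 fold change of -4.43 (SE 0.23), and PKP2 of 0.28 (SE 0.18, adjusted p = 0.19). PKP2 had 57.1 and 48.5 CPM in U2OS control libraries, against 40.4 and 46.4 CPM in HCT116 control libraries, and the lines overlapped.

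Of the 6 keratins, 5 were lower in U2OS and KRT80 was higher. KRT19 showed the widest separation of any member by fitted fold change. It had 0 and 1 counts in the U2OS control libraries and 4 counts in all 8 U2OS libraries, against 752 and 582 CPM in HCT116 control libraries, or 24852 counts. On these counts it was 34160-fold lower in U2OS, with an exact counting interval of 6130 to 1349000. KRT8 and KRT18, which pair to form the first filaments of simple epithelia, were abundant in both lines. KRT8 had 288 and 367 CPM in U2OS control libraries, against 2418 and 1896 CPM in HCT116 control libraries (log2 fold change -2.72, SE 0.23, edgeR adjusted p = 1.3e-07). KRT18 had 342 and 295 CPM in U2OS control libraries, against 893 and 802 CPM in HCT116 control libraries (log2 fold change -1.41, SE 0.15, adjusted p = 1.1e-06). Across all libraries the highest U2OS value of KRT18, 814 CPM, lay above the lowest HCT116 value, 779 CPM. Both genes have many near-identical pseudogene copies, so how reads were shared among copies is uncertain. KRT80, an epithelial keratin, had 216 and 241 CPM in U2OS control libraries, against 38.9 and 45.2 CPM in HCT116 control libraries (log2 fold change 2.44, SE 0.19, adjusted p = 6.1e-08). The intestinal keratin KRT20 had 1 count in the U2OS control libraries against 62 in the HCT116 control libraries, and KRT23 was at most 0.397 CPM in U2OS and 4.60 to 14.03 CPM in HCT116.

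On the TPM scale, which allows genes to be compared, the balance of the keratin 8 and keratin 18 genes differed between the lines. In U2OS the TPM of KRT8 was 0.383 to 0.971 times that of KRT18 (median 0.507), below it in all 8 libraries. In HCT116 it was 1.84 to 2.20 times that of KRT18 (median 2.135), above it in all 8 libraries. By mean TPM in control libraries, the order of the members in U2OS ran KRT18 (515 TPM), KRT8 (413 TPM), KRT80 (128 TPM) and TJP1 (54.98 TPM). In wild-type HCT116 it ran KRT8 (2132 TPM), KRT18 (1068 TPM), KRT19 (826 TPM), EPCAM (301 TPM) and CLDN7 (212 TPM).

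**Figure D3:**
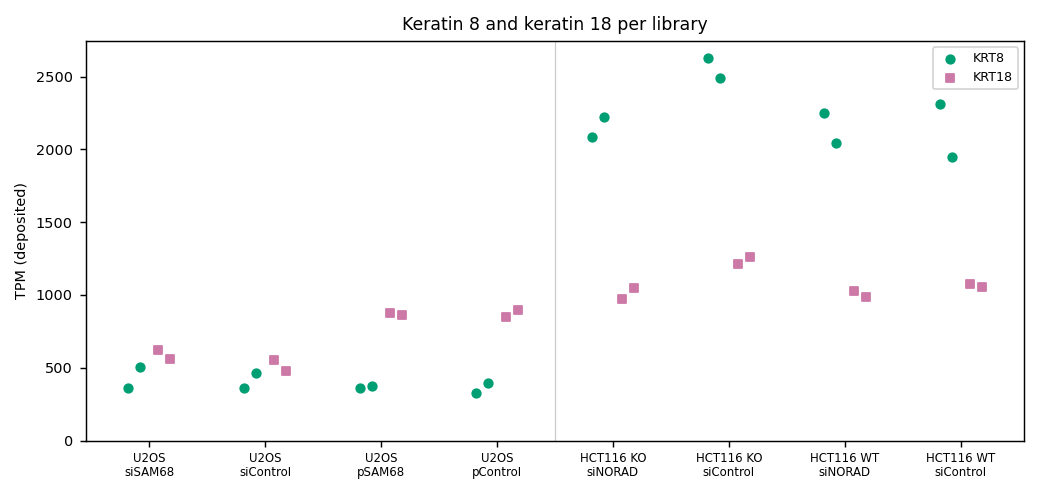
TPM of KRT8 (circles) and KRT18 (squares) in each of the 16 libraries, by group. KRT18 lies above KRT8 in all 8 U2OS libraries, and KRT8 lies at 1948 to 2631 TPM above KRT18 at 971 to 1261 TPM in the HCT116 libraries.

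The 5 regulators of the epithelial state were all lower in U2OS, with at most 0.498 CPM in any U2OS library. ESRP1 and ESRP2 encode splicing regulators that give mRNAs their epithelial exons. ESRP1 had 0.266 and 0.180 CPM in U2OS control libraries, against 107 and 119 CPM in HCT116 control libraries (log2 fold change -8.97, SE 0.30, edgeR adjusted p = 4.0e-11). ESRP2 had 0.293 and 0.266 CPM in U2OS control libraries, against 58.7 and 57.8 CPM in HCT116 control libraries (log2 fold change -7.68, SE 0.35, adjusted p = 4.2e-10). ELF3, an ETS factor of epithelia, had 0.0886 and 0.108 CPM in U2OS control libraries, against 60.8 and 60.7 CPM in HCT116 control libraries (log2 fold change -9.17, SE 0.32, adjusted p = 3.1e-10). None of these groups overlapped between the lines. GRHL2, a grainyhead factor, had 1 count in the U2OS control libraries and 865 in the HCT116 control libraries, 1189-fold lower in U2OS with an exact counting interval of 212.8 to 47010. OVOL1, a zinc finger repressor of the mesenchymal programme, had 0 counts in every U2OS library and was at 16.1 to 18.5 CPM in HCT116. Against a floor of 3 counts over the U2OS control libraries it was at least 299.6-fold lower.

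CD44 is a surface receptor whose variable exons ESRP proteins are known to include. The deposited length of CD44, RSEM's mean over its transcripts weighted by their abundance, was 4492 to 4646 bases in U2OS and 5207 to 5334 bases in HCT116, with no overlap. The allowance for fragment size that RSEM takes off this length was 160.5 to 177 bases in U2OS and 154 to 208 bases in HCT116. Its level was 150.0 to 388 CPM in U2OS and 482 to 613 CPM in HCT116. Whether the ESRP levels play a part in the length difference was not tested.

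Of the 9 intestinal and colon members, CDX2 and MUC1 were tested. CDX2, a transcription factor of intestinal identity, had 1.64 and 2.41 CPM in U2OS control libraries, against 13.2 and 10.9 CPM in HCT116 control libraries (log2 fold change -2.56, SE 0.29, edgeR adjusted p = 3.0e-06). It was counted in all 8 U2OS libraries, at 1.56 to 3.27 CPM. MUC1, a membrane mucin of many epithelia, was higher in U2OS, with 3.28 and 5.79 CPM against 0.722 and 1.70 CPM in HCT116 control libraries (log2 fold change 1.94, SE 0.44, adjusted p = 0.0014). The other 7 members, the intestinal factors CDX1 and HNF4A and the colon products VIL1 (villin), LGALS4 (galectin 4), MUC13, TFF3 (trefoil factor 3) and CEACAM5, passed no filter, as did CDH17. None of these 8 exceeded 0.511 CPM in any library of either line. TFF3 had 0 counts in all 16 libraries, which allows a level of up to 0.00948 CPM (3 counts over all libraries). CDX1 and VIL1 had 1 count each in U2OS and 0 in HCT116, which allows up to 0.0188 CPM there. LGALS4 had 25 counts in U2OS and 7 in HCT116, and HNF4A 16 and 53. These limits cover counting error only.

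Other genes of the same kinds, which are not members, divided in both directions. Of 92 further epithelial genes, 68 were tested, 36 were lower and 16 were higher in U2OS. That was 76.5% of those tested, against 65.4% of all genes, of which 29.8% were lower and 35.6% higher. SPINT2, an inhibitor of matriptase, was lower, at 0.354 and 0.395 CPM in U2OS control libraries against 442 and 362 CPM in HCT116 control libraries (log2 fold change -10.04, SE 0.32). CDH3 (P-cadherin, log2 fold change -10.00, SE 0.37) and PPL (periplakin, log2 fold change -6.89, SE 0.27) were lower as well. The hair keratin KRT81 was higher, with 291 and 272 CPM in U2OS control libraries against 5.60 and 4.35 CPM in HCT116 control libraries. The basal keratins KRT17 and KRT14 were also higher, KRT17 at 72.4 and 245 CPM in U2OS control libraries against 3 counts in the HCT116 control libraries together. Among further keratins 3 were higher, 3 lower and 3 not called. Of 8 factors known to drive epithelial to mesenchymal transition, 6 were called higher in U2OS, where 35.6% of all genes were. TCF4 was at least 694-fold and PRRX1 at least 79.1-fold higher, against a floor of 3 counts over the HCT116 control libraries. SNAI2 had 2 counts in those libraries and was 190.2-fold lower there (exact counting interval 52.4 to 1575). TWIST1 went the opposite way, with 0 counts in U2OS and at least 22.4-fold lower there. SNAI1 was not called (log2 fold change -0.51, SE 0.25, edgeR adjusted p = 0.086). It had 5.27 and 8.27 CPM in U2OS control libraries, against 9.97 and 9.44 CPM in HCT116 control libraries. Of 14 mesenchymal and bone genes tested, 13 were called higher in U2OS (92.9%, against 35.6% of all genes). Among them was VIM (vimentin) at 2586 and 2300 CPM against 2.65 and 2.83 CPM in HCT116 control libraries. COL6A1 was not called, at 48.1 to 100 CPM in U2OS and 54.5 to 76.5 CPM in HCT116. The other 3 of the 17 listed genes were too low to be tested. In U2OS libraries COL1A2 reached at most 1.29 CPM, the bone factor SP7 0.108 CPM and POSTN 0.237 CPM.

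Within U2OS, changing SAM68 left no member past the threshold. Of the 18 members tested, 0 were called under SAM68 siRNA and 0 under the SAM68 plasmid by edgeR, where 1 of 15658 genes was called in each (0.00639%). DESeq2 called 7 and 5 genes and none of the members. At an unadjusted p below 0.05 the members counted 0 in both comparisons, against 1.06% of genes under SAM68 siRNA and 0.549% under the plasmid. KHDRBS1 itself missed the threshold in U2OS, with a log2 fold change of -1.94 (SE 0.25, edgeR adjusted p = 0.18) under siRNA and of 1.18 (SE 0.24, adjusted p = 1.0) under the plasmid. The standard errors of the members, 0.18 to 0.57 on the log2 scale, set what could be seen, and a p above the threshold does not show that levels were alike.

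CDH1 had 3.40 and 2.63 CPM under SAM68 siRNA, against 2.44 and 1.73 CPM under control siRNA (log2 fold change 0.49, SE 0.32, unadjusted p = 0.16), and its groups did not overlap. KRT18 had 370.2 and 382 CPM under SAM68 siRNA, against 342 and 295 CPM under control siRNA (log2 fold change 0.20, SE 0.18), also without overlap. For DSG2 the log2 fold change was -0.40 (SE 0.34) and for MUC1 0.35 (SE 0.34), and their groups overlapped. Under the SAM68 plasmid, DSP had 1.97 and 3.23 CPM, against 4.83 and 3.72 CPM under the control plasmid (log2 fold change -0.68, SE 0.55, unadjusted p = 0.24). CLDN1 (log2 fold change -0.33, SE 0.28), PKP2 (-0.16, SE 0.23) and KRT18 (0.13, SE 0.18) had the next smallest p-values. The signs for KRT18 and PKP2 turned without SAM68 plasmid replicate 1, and that for DSG2 under siRNA without SAM68 siRNA replicate 2. The median log2 fold change of the members was 0.09 under SAM68 siRNA and 0.01 under the plasmid, and that of all genes -0.01 and 0.01.

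**Figure D4:**
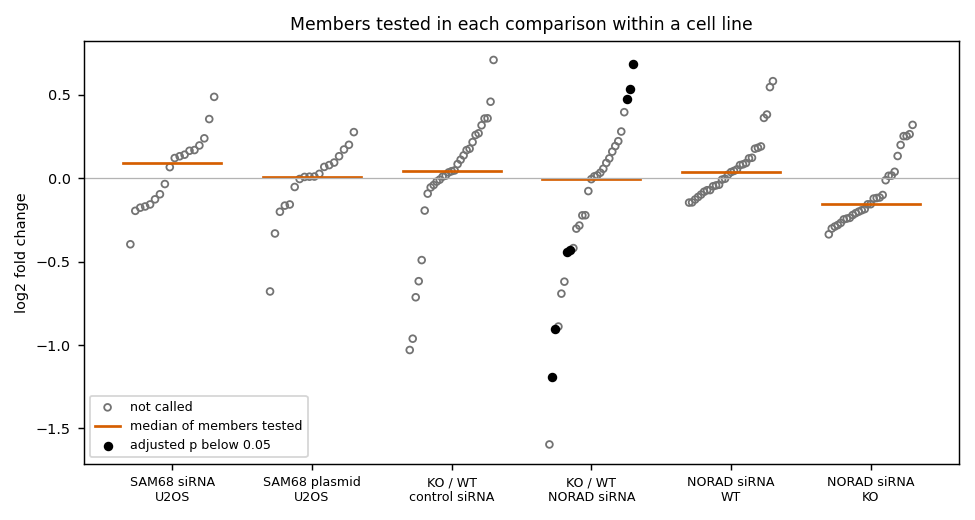
Log2 fold change of each member tested in 6 comparisons within a line, ordered by size within a comparison, with the median as a bar. Filled points, which occur only between knockout and wild-type HCT116 under NORAD siRNA, passed an adjusted p below 0.05.

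Between SAM68 knockout and wild-type HCT116, a few members moved and in both directions. Under NORAD siRNA 3 members were higher in knockout cells and 4 were lower, of 29 tested (24.1%). Of all 13764 genes 18.1% were called, 11.6% as higher and 6.58% as lower. As the mean over both siRNAs, 3 were higher and 3 lower (20.7%), against 17.6% of all genes, 11.0% as higher and 6.62% as lower. The members' shares lay near these backgrounds. In that mean DSC2 (log2 fold change 0.57), KRT80 (0.62) and EPCAM (0.32) were higher, and KRT23 (-1.08), PKP3 (-0.76) and ST14 (-0.31) were lower. Under control siRNA 0 members were called, against 0.312% of genes. There 5 members had an unadjusted p below 0.05, against 9.22% of genes, and DESeq2 called 3 members (KRT23, KRT80 and PKP3), against 0.859% of genes. These counts come from fits without the replicate number as a block. With the block, members called were 4 under control siRNA, 12 under NORAD siRNA and 14 in the mean, and genes called were 254, 5539 and 5247. KRT23, KRT80 and PKP3 were then called under control siRNA (edgeR adjusted p = 0.014, 0.0023 and 0.016).

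KRT23 had the smallest p of the members. This keratin of gut and other epithelia had 6.67 and 5.38 CPM in knockout cells under NORAD siRNA, against 13.7 and 14.03 CPM in wild-type cells (log2 fold change -1.19, SE 0.19, edgeR adjusted p = 0.012). Under control siRNA it had 6.498 and 4.60 CPM in knockout cells, against 10.8 and 10.8 CPM in wild-type cells (log2 fold change -0.96, SE 0.20, adjusted p = 0.11). The 4 knockout libraries all lay below the 4 wild-type libraries.

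PKP3, the plakophilin, showed the same division. It had 44.0 and 46.2 CPM in knockout cells under NORAD siRNA, against 94.0 and 77.4 CPM in wild-type cells (log2 fold change -0.91, SE 0.17, edgeR adjusted p = 0.015). Under control siRNA it had 58.9 and 50.6 CPM in knockout cells, against 97.9 and 70.8 CPM in wild-type cells (log2 fold change -0.62, SE 0.17, adjusted p = 0.24). No knockout library reached the lowest wild-type value.

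DSC2 and KRT80 were higher in knockout cells. The desmosomal cadherin DSC2 had 47.8 and 47.5 CPM in knockout cells under NORAD siRNA, against 26.5 and 33.6 CPM in wild-type cells (log2 fold change 0.69, SE 0.14, edgeR adjusted p = 0.019). Under control siRNA it had 36.3 and 40.7 CPM in knockout cells, against 28.5 and 27.9 CPM in wild-type cells (log2 fold change 0.46, SE 0.14, adjusted p = 0.31). KRT80 had 53.6 and 65.3 CPM in knockout cells under NORAD siRNA, against 40.5 and 43.0 CPM in wild-type cells (log2 fold change 0.53, SE 0.15, adjusted p = 0.041). Under control siRNA it had 59.8 and 76.5 CPM in knockout cells, against 38.9 and 45.2 CPM in wild-type cells (log2 fold change 0.71, SE 0.15, adjusted p = 0.13). For both genes the knockout and wild-type libraries did not overlap.

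EPCAM, ST14 and JUP moved by smaller amounts. EPCAM had 392 and 371 CPM in knockout cells under NORAD siRNA, against 266 and 292 CPM in wild-type cells (log2 fold change 0.47, SE 0.10, edgeR adjusted p = 0.021). Under control siRNA it had 307 and 339 CPM in knockout cells, against 282 and 293 CPM in wild-type cells (log2 fold change 0.18, SE 0.10). ST14 had 153 and 144 CPM in knockout cells under NORAD siRNA, against 205 and 201 CPM in wild-type cells (log2 fold change -0.43, SE 0.12, adjusted p = 0.039). Its libraries overlapped under control siRNA, where knockout cells had 187 and 167 CPM and wild-type cells 225 and 182 CPM. JUP had 137 and 127 CPM in knockout cells under NORAD siRNA, against 184 and 179 CPM in wild-type cells (log2 fold change -0.44, SE 0.12, adjusted p = 0.035). Under control siRNA it had 179 and 149 CPM in knockout cells and 179 and 156 CPM in wild-type cells (log2 fold change -0.02, SE 0.12), and as the mean over both siRNAs it was not called.

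**Figure D5:**
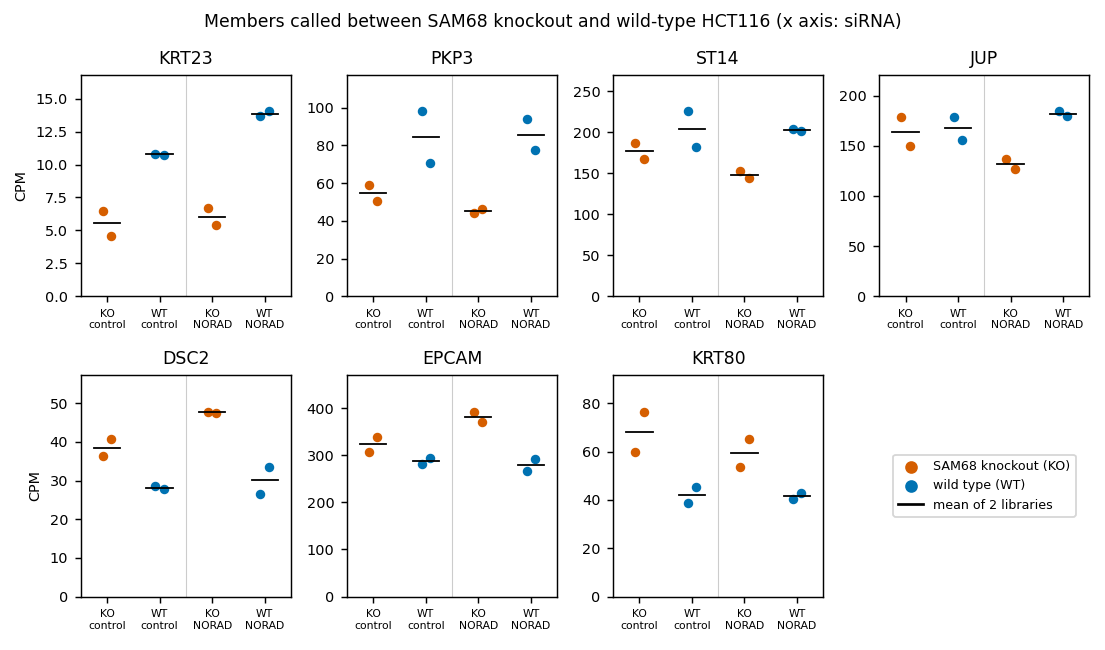
CPM of the 7 members called between SAM68 knockout and wild-type HCT116, per library, with knockout left of wild type under control siRNA and under NORAD siRNA. Bars are means of 2 libraries, and KRT23, PKP3, DSC2, KRT80 and EPCAM keep knockout and wild type apart under both siRNAs.

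These calls changed when single libraries were left out. Under NORAD siRNA the members called numbered 0 without wild-type replicate 1, wild-type replicate 2 or knockout replicate 1, and 2 without knockout replicate 2 of the NORAD siRNA groups. The genes called numbered 19, 30, 19 and 747 in the same fits, against 2495 with all libraries. As the mean over both siRNAs, 2 members were called without wild-type NORAD siRNA replicate 1 and 3 without knockout NORAD siRNA replicate 1. In that mean 10 were called without knockout control siRNA replicate 1 and 11 without wild-type control siRNA replicate 2. The log2 fold changes of the 7 members kept their sign in the 4 fits under NORAD siRNA that left out 1 library.

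Without the block, other abundant members were not called between knockout and wild type under either siRNA, of which CDH1, KRT8, KRT18, KRT19 and DSP are given here, chosen after their values were seen. CDH1 had 71.7 and 72.1 CPM in knockout cells under NORAD siRNA, against 58.2 and 66.9 CPM in wild-type cells (log2 fold change 0.22, SE 0.14, edgeR adjusted p = 0.27). Under control siRNA CDH1 had 75.6 and 92.0 CPM in knockout cells, against 59.2 and 72.5 CPM in wild-type cells, without overlap. KRT18 and KRT19 were likewise higher in knockout cells under control siRNA without overlap, whereas KRT8 and DSP overlapped. For KRT8, KRT18, KRT19 and DSP the log2 fold changes under NORAD siRNA were 0.03 (SE 0.14), 0.02 (SE 0.10), 0.06 (SE 0.17) and -0.01 (SE 0.11). None of the 7 tight junction genes or 5 regulators tested was called. Of these regulators, GRHL2 still had its libraries apart, at 19.2 to 22.3 CPM in knockout and 22.9 to 25.7 CPM in wild-type cells. The share of all genes whose knockout and wild-type libraries lay apart was not determined. Among other epithelial genes under NORAD siRNA, 6 of 60 were higher and 4 lower in knockout cells (16.7%, against 18.1% of all genes). CA2 (carbonic anhydrase 2, log2 fold change 0.74, SE 0.12), EHF (an ETS factor, 0.78, SE 0.15) and PERP (a desmosome protein, 0.59, SE 0.12) were higher. EVPL (envoplakin, -0.87, SE 0.20), PPL (-0.41, SE 0.11) and CGN (cingulin, -0.38, SE 0.11) were lower. VIM was lower in knockout cells, with 1.70 and 1.61 CPM against 5.51 and 3.76 CPM in wild-type cells (log2 fold change -1.47, SE 0.26, adjusted p = 0.015), as was COL1A1. The mesenchymal list as a whole summed to 81.8 to 107 CPM in knockout and 94.7 to 114 CPM in wild-type libraries, and its part in the members' differences was not tested.

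NORAD siRNA moved no member past the threshold. These comparisons use the same libraries as those between knockout and wild type, so their values are not independent of them. Of 29 members tested, 0 were called in wild-type and 0 in knockout HCT116 by edgeR, where 1 of 13764 genes, NORAD itself, was called in each (0.00727%). DESeq2 called 5 and 9 genes. At an unadjusted p below 0.05, 0 members counted in wild-type cells, against 1.32% of genes, and 4 in knockout cells, against 11.3% of genes. The members with the smallest p in wild-type cells were KRT23 (log2 fold change 0.36, SE 0.18), MUC1 (0.58, SE 0.48), ELF3 (0.18, SE 0.15) and KRT20 (0.38, SE 0.33). In knockout cells they were JUP (-0.30, SE 0.12), EPCAM (0.25, SE 0.10), DSC2 (0.32, SE 0.14) and KRT18 (-0.24, SE 0.10), with adjusted p of 0.43 to 0.44. The NORAD siRNA effect on JUP differed between knockout and wild-type cells by -0.42 (SE 0.17, adjusted p = 0.64), the 1 member with an unadjusted p below 0.05 for this difference. For the difference 0 genes (0.0%) were called by edgeR and 2 by DESeq2, and 7.61% of genes had an unadjusted p below 0.05. The smallest p-values after JUP belonged to EPCAM (0.30, SE 0.14), CDX2 (-0.37, SE 0.22) and ELF3 (-0.33, SE 0.21). The median of the members was 0.04 in wild-type cells and -0.16 in knockout cells, while that of all genes was 0.00 in both.

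Control plasmid was also set against control siRNA in U2OS, a comparison added after the values were seen. KRT18 was the 1 member called of 18, with 639.5 and 683 CPM under the control plasmid, against 342 and 295 CPM under control siRNA (log2 fold change 0.97, SE 0.18, edgeR adjusted p = 0.045). Of all genes 1.3% were called, and 22.8% had an unadjusted p below 0.05, against 8 of the 18 members. The call of KRT18 was lost without any 1 of the 4 libraries (adjusted p 0.12 to 0.42). Its partner KRT8 had 315 and 383 CPM under the control plasmid, against 288 and 367 CPM under control siRNA (log2 fold change 0.00, SE 0.24). Per length, KRT18 was at 849 to 897 TPM in the 4 plasmid libraries and 477 to 621 TPM in the 4 siRNA libraries. TJP3 (log2 fold change -1.97, SE 0.45, adjusted p = 0.065), DSC2 (-1.13, SE 0.32) and JUP (-1.37, SE 0.41) had the next smallest p-values, at lower levels under the plasmid. The median log2 fold change was -0.30 over the members and -0.11 over all genes. The mean of each control group also enters the comparisons of SAM68 siRNA and SAM68 plasmid above, so these comparisons share samples. The agent and the experiment cannot be told apart in this comparison.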

How the data were processed

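RNA from 16 libraries was analysed from 1 RSEM gene table per library. Per the file headers, the authors deposited expected counts, estimated reads per gene that need not be whole, TPM values and transcript lengths in bases, before and after an allowance for fragment size (further deposited columns). Per the submitters' processing notes, STAR and RSEM were run on genome build hg19. No version is stated, nor whether the strand of the stranded kit was used in counting, so antisense and overlapping genes and near-identical copies are uncertain.

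The expected counts were rounded to whole numbers, filtered with filterByExpr and TMM scaled. Tests were by edgeR quasi-likelihood (edgeR 4.0.16, limma 3.58.1, R 4.3.3), with Benjamini-Hochberg adjustment over all genes tested and calls below 0.05. The lines were compared in 1 fit of all 16 libraries (16444 genes, biological coefficient of variation 16.4%). U2OS (15658 genes, 20%) and HCT116 (13764 genes, 11.3%) were each fitted apart for the comparisons within a line. Groups of a fit share the estimate of the spread. Fits had no replicate block. The labels do not say that replicate numbers pair samples, but the deviations of same-numbered HCT116 libraries correlated at 0.113 to 0.50 over all 6 pairs of groups, so counts with the block are also given for the knockout. DESeq2 1.42.0 was an alternative. Depth was 11349545 to 27387412 counts per library, and replicates of a group differed by more than sampling noise (chi-square per gene 7.83 to 60.1), so all libraries were kept as separate samples. The scripts were tested on simulated data.

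Standard errors of log2 fold changes come from the fold change and its F statistic. Counting intervals are exact binomial (Clopper-Pearson) at 95%, a count of 0 is bounded by 3 counts, and both cover counting error only. The deposited TPM served only to compare levels between genes. Printed values follow a rule: up to 3 members per role class with the highest TPM, members called higher in U2OS, called members within a line or, under 4 calls, the 4 with the smallest p, and of other lists the 3 called genes with the smallest p in each direction. Further members were added as ranges. The members and lists were chosen with earlier results of these data known. The crossed replicate blocks and the comparison of control plasmid with control siRNA were chosen after seeing the data.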

Additional observations from a re-analysis of the deposited data

How the results depend on the processing

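Between the lines 27 to 29 members were called under every alternative, against 28. CLDN2 was lost against knockout HCT116 and without U2OS control siRNA replicate 2 or wild-type control siRNA replicate 1, TJP1 was gained with only the 4 control libraries, and TJP1 turned to -0.00296 as the mean of all groups. With SAM68 siRNA or plasmid in U2OS no alternative called a member. Genes called numbered 27 with no filter on low counts, 0 with a replicate block, 7 with DESeq2 and 0 to 5 with 1 library left out under SAM68 siRNA, and 15, 0, 5 and 0 to 4 under the plasmid, where 1 was called in each. With 1 library left out, log2 fold changes spanned -0.891 to 0.022 for DSG2 under siRNA, and -0.0724 to 0.307 for KRT18 and -0.429 to 0.0536 for PKP2 under the plasmid.

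Between knockout and wild type under control siRNA, genes called were 272 with no filter on low counts, 254 with the replicate block, 112 with DESeq2 and 20 to 41 with 1 library left out, against 43, and members called were 3, 4, 3 and 0, against 0. Under NORAD siRNA, genes called were 3965 with no filter, 5539 with the block and 19 to 747 with 1 library left out, against 2495, and members called were 12 with the block and 0 to 2 with 1 library left out, against 7. As the mean over both siRNAs, genes called were 3772, 5247 and 201 to 3144, against 2424, and members called 12, 14 and 2 to 11, against 6. Under NORAD siRNA genes called were 33 with no filter, 3 with the block, 5 with DESeq2 and 1 to 2 with 1 library left out in wild-type cells, 61, 7, 9 and 0 to 4 in knockout cells, and 30, 2, 2 and 0 to 1 for the difference, and no member was called. For control plasmid against control siRNA, genes called were 1 to 54 with 1 library left out, against 204, and members 0, against 1. Where leaving out a library gave fewer calls, fewer samples were tested, and the lone sample was taken to vary like the other groups. The cause of the other changes was not tested.

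The labels do not say that replicate numbers pair samples. Deviations of same-numbered libraries correlated at 0.493 under the U2OS siRNAs, 0.50 between the control siRNA groups of HCT116 and 0.113 between its NORAD siRNA groups. Between the siRNAs they correlated at 0.213 in knockout and 0.311 in wild-type HCT116, and across both genotype and siRNA at 0.324 and 0.206. They correlated at -0.141 in the plasmid groups and -0.143 between the lines. A replicate block with crossed numbers called 2 genes and 0 members for the plasmid and 28 members between the lines.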

Other observations

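JUP and KRT17, a plakoglobin and a basal keratin gene, were higher in replicate 2 than in replicate 1 of both U2OS siRNA groups. JUP had 14.8 and 35.3 CPM under SAM68 siRNA and 14.9 and 28.1 CPM under control siRNA. KRT17, which is not a member, had 76.9 and 353 CPM under SAM68 siRNA and 72.4 and 245 CPM under control siRNA. In the 4 plasmid libraries JUP was at 7.75 to 9.88 CPM and KRT17 at 29.9 to 48.2 CPM. DSP ran the opposite way in the siRNA groups, with 3.95 and 1.14 CPM under SAM68 siRNA and 2.83 and 1.47 CPM under control siRNA. These genes were singled out after their values were seen, and no test was made.

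The length of CD44, weighted by transcript abundance, did not overlap between the transfections in U2OS, at 4628 to 4646 bases in the 4 plasmid libraries and 4492 to 4547 bases in the 4 siRNA libraries. CD44 was at 344 to 388 CPM in the plasmid libraries and 150.0 to 214 CPM in the siRNA libraries.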
